A study of Felis catus with 12 samples.

Results

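The immediate early response genes FOS, FOSB, JUN, JUNB, EGR1, ATF3, MYC, IER2, DUSP1 and ZFP36 were taken by symbol, as 10 of the 30785 genes listed, and their levels were compared across 12 libraries of cat heart. RNA from the left ventricle of 12 cats was read directly, as RNA molecules on nanopores, each cat giving a single library. The first part of each library name was taken as its flow cell, though the labels do not call it so. Read this way, 4 libraries lay on each of 3 flow cells: cats 11, 23, 30 and 31 on PAK20671, cats 10, 15, 35 and 36 on PAM73681, and cats 22, 29, 37 and 38 on PAM73696. All tissue was collected post mortem from client-owned domestic cats, without any experimental treatment. The carcasses had been stored cold, for a time that the study bounds for all cats together and does not give for each cat. The labels give no age, sex, breed or clinical outcome. The study lists these by cat number, but they were not used here, so the flow cell was the only grouping compared. A difference between flow cells also holds the differences between the cats that they carried. The part of outcome or other traits of the cats in it was not tested. The labels of the libraries of cats 22 and 29 do not match the cats that the study lists as sequenced. For the ranges, pairs, flow cell differences and medians of gene lists, the larger changes without these libraries are given.

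Immediate early genes are transcribed within minutes of a stimulus, from promoters that need no new protein synthesis, because kinases of the MAPK family switch on factors such as SRF, the ELK proteins and CREB that are already present. Many of their products are transcription factors that start the next wave of genes, and others shut the response down again by inactivating kinases or removing messages. In the heart they are known to respond to stretch, adrenergic drive, ischaemia and handling of the tissue, and their transcripts are short-lived.

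Depth ran from 789257 to 2263110 reads on genes per library, and 12189 to 13987 genes had a read. A gene was tested where 3 or more libraries held 10 or more of its reads, which left 8820 genes, among them 7 of the 10 members. Levels are given as the deposited values, which are reads divided by a size factor of each library, so that libraries can be compared for 1 gene. The factor is shared by all genes of a library and corrects for no difference between genes, and the members were not ranked against each other by level. As whole pieces of tissue were sequenced, fewer cells of a type and less RNA per cell cannot be told apart. Of the 8 cardiomyocyte markers chosen, 7 were listed and all 7 passed the filter, and their summed value ran from 77730 to 192600 across libraries.

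In AP-1, FOS or FOSB pairs with JUN or JUNB to bind DNA. Of these genes only FOS and JUNB were read deeply enough to be compared. FOS had 12 to 142 reads per library. Its value was 57.0 in cat 11, 80.6 in cat 23, 20.2 in cat 30 and 113 in cat 31 on PAK20671, 20.3 in cat 10, 16.3 in cat 15, 19.7 in cat 35 and 76.6 in cat 36 on PAM73681, and 123 in cat 22, 38.8 in cat 29, 41.5 in cat 37 and 14.7 in cat 38 on PAM73696. Each flow cell held at least 1 library with a high level and 1 with a low level of FOS, and the flow cells overlapped. From the lowest library to the highest the range was 8.35-fold.

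JUNB, an AP-1 partner that can also restrain JUN, was 82.5 in cat 11, 40.3 in cat 23, 37.04 in cat 30 and 78.2 in cat 31, then 39.5 in cat 10, 28.6 in cat 15, 50.4 in cat 35 and 44.5 in cat 36, and 78.3 in cat 22, 36.6 in cat 29, 48.6 in cat 37 and 19.9 in cat 38. Cats 11, 22 and 31 stood above the other 9 libraries, and the range was 4.16-fold. FOSB had 0 reads in all 12 libraries, and a count of 0 allows up to 3 reads, which is a value of 1.45 to 4.29 depending on the library. JUN had 1 to 7 reads per library and 38 reads in all, so that its coefficient of variation (CV) of 59.8% was close to the 56.9% that counting alone gives. No difference between libraries was detectable for JUN at this depth.

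ATF3, a stress-induced factor of the ATF/CREB family, had the widest range of the tested members. Its value was 58.4 in cat 11, 175 in cat 23, 26.1 in cat 30 and 45.5 in cat 31, then 23.7 in cat 10, 13.6 in cat 15, 8.665 in cat 35 and 134 in cat 36, and 271 in cat 22, 47.7 in cat 29, 55.8 in cat 37 and 54.4 in cat 38. The top library of each flow cell, cats 22, 23 and 36, stood above the other 9, and the range was 31.3-fold, or 20.15-fold without cat 22. In the RefSeq annotation of a newer cat assembly, ATF3 overlaps the non-coding gene LOC111558349, and the strand setting of the counting is not given in the sources used here, so reads of the 2 genes may not be separated. The other 9 members overlap no other gene there.

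EGR1, a zinc-finger factor induced through SRF and the ELK proteins, was 112 in cat 11, 77.9 in cat 23, 44.6 in cat 30 and 72.6 in cat 31, then 50.7 in cat 10, 23.2 in cat 15, 20.5 in cat 35 and 203 in cat 36, and 90.5 in cat 22, 28.8 in cat 29, 52.9 in cat 37 and 21.3 in cat 38. Its highest library was cat 36, which carried 228 reads, and its range was 9.91-fold. MYC, which drives growth and biosynthesis genes, was 84.5 in cat 11, 48.4 in cat 23, 46.3 in cat 30 and 59.0 in cat 31, then 27.1 in cat 10, 12.3 in cat 15, 34.7 in cat 35 and 24.9 in cat 36, and 91.8 in cat 22, 26.6 in cat 29, 27.2 in cat 37 and 14.7 in cat 38. All 4 libraries of PAK20671 were above 7 of the 8 libraries on the other flow cells, and only cat 22 kept the ranges from separating.

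IER2, a nuclear protein of the immediate early response, was read thinly, with 3 to 56 reads per library. Its value was 27.0 in cat 11, 18.8 in cat 23, 17.7 in cat 30 and 16.75 in cat 31, then 12.4 in cat 10, 13.6 in cat 15, 11.8 in cat 35 and 24.04 in cat 36, and 35.1 in cat 22, 5.54 in cat 29, 4.29 in cat 37 and 13.2 in cat 38. Cats 29 and 37 were lowest, with 5 and 3 reads.

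The last 2 members end the response. DUSP1, a phosphatase that inactivates MAP kinases, was 143 in cat 11, 125 in cat 23, 110.3 in cat 30 and 116 in cat 31, then 67.6 in cat 10, 89.9 in cat 15, 82.7 in cat 35 and 85.5 in cat 36, and 161 in cat 22, 59.9 in cat 29, 123 in cat 37 and 92.7 in cat 38. Its range of 2.68-fold was the narrowest of the 7 tested members. Within PAK20671 its lowest library, cat 30, exceeded all 4 libraries of PAM73681, whereas PAM73696 spanned both. ZFP36, which marks AU-rich messages for decay, had 17 reads in all, 0 to 5 per library, and no reads in cats 15, 22, 29 and 36, so it was not tested.

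**Figure D1:**
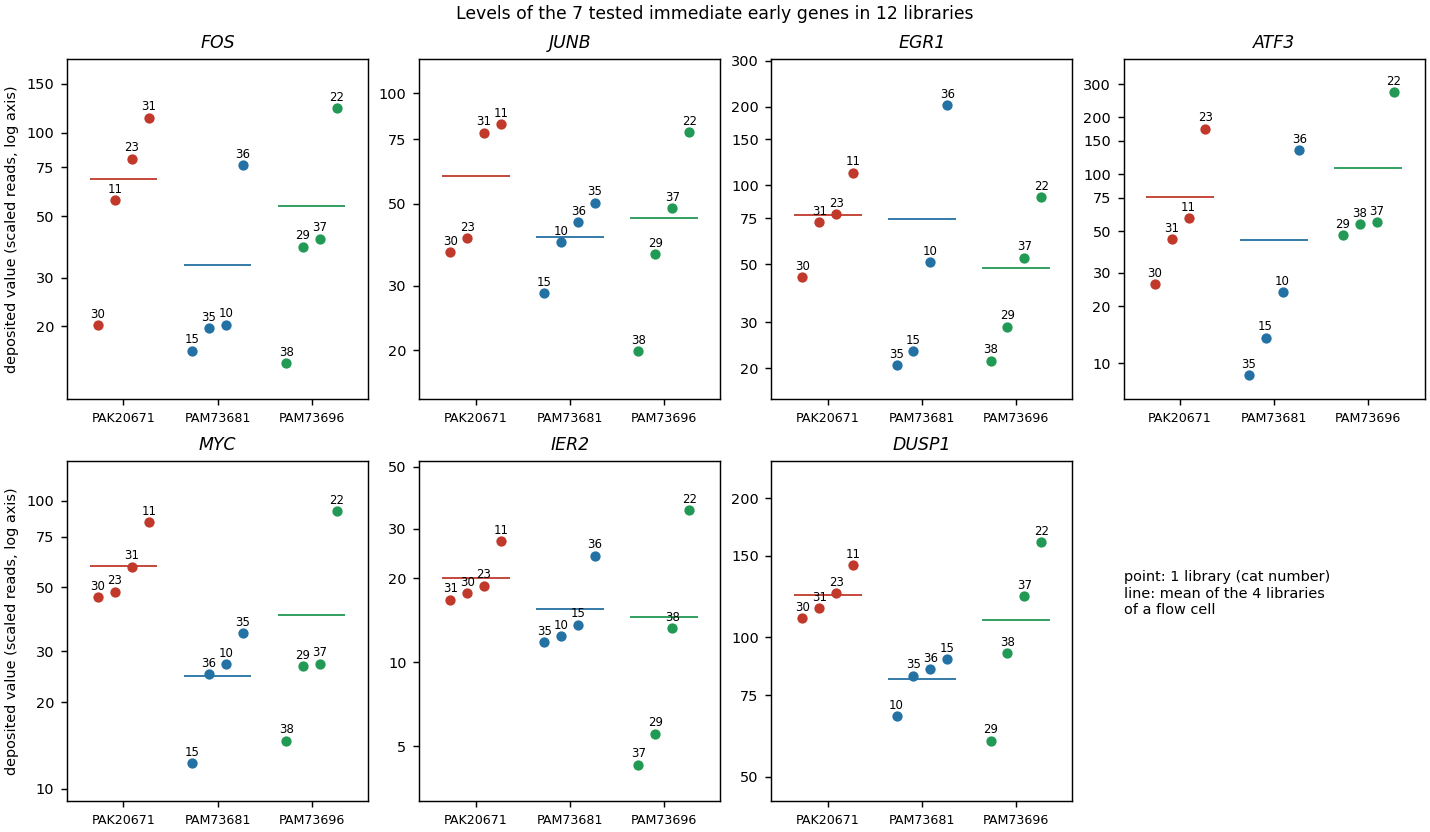
Deposited value of the 7 tested members (log axes, 1 panel per gene, each with its own range) in the 12 libraries, by flow cell. Points are libraries labelled with the cat number and lines are means of 4 libraries. Cat 22 is the highest library for FOS, ATF3, MYC, IER2 and DUSP1, and no member separates PAK20671 from the other flow cells without overlap.

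The spread of the tested members across libraries was set beside that of all tested genes. The CV over 12 libraries was 103% for ATF3, 78.3% for EGR1, 74.1% for FOS, 62.1% for MYC, 52.6% for IER2, 41.9% for JUNB and 28.98% for DUSP1, against a median of 40.2% over all tested genes. The CV expected from counting alone was 9.88% to 24.7% for these members and had a median of 19.4% over all tested genes. ATF3 varied more than 97.4% of the tested genes, EGR1 more than 92.0% and FOS more than 90.3%, whereas JUNB lay near the middle at 53.6% and DUSP1 varied more than only 22.95%. Without cats 22 and 29 the CV was 90.6% for ATF3 and 40.6% for IER2, and it moved by less for the other 5.

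Each member's log2(value + 1) was then centred on its mean and divided by its SD, and the mean of the 7 tested members was taken per library as a description. This mean was highest in cat 22, at 1.42 SD units, followed by 0.97 in cat 11, 0.66 in cat 31, 0.59 in cat 23 and 0.50 in cat 36. It was lowest in cat 15, at -0.96, with -0.87 in cat 38, -0.73 in cat 29, -0.66 in cat 35 and -0.57 in cat 10, and cats 37 and 30 lay between at -0.19 and -0.16. By flow cell the mean was 0.52 ± 0.48 (SD, 4 libraries) on PAK20671, -0.42 ± 0.64 on PAM73681 and -0.09 ± 1.05 on PAM73696. All 7 members were above their own median in cats 11 and 22, and 6 of 7 were in cats 23 and 31, whereas 0 of 7 were in cats 10, 15 and 29. The other libraries were mixed, with 5 members above their median in cats 36 and 37, 3 in cat 30, 2 in cat 35 and 1 in cat 38. Without cats 22 and 29 the order ran from cat 11 at 1.13 to cat 15 at -0.93.

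Individual members did not follow the mean in every library. In cat 36, EGR1 stood at 1.90 SD units above its mean while DUSP1 stood at -0.55. In cat 37, DUSP1 was at 0.68 and IER2 at -1.95, the latter from 3 reads. In cat 38, JUNB was at -1.91 while ATF3 was at 0.10.

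**Figure D2:**
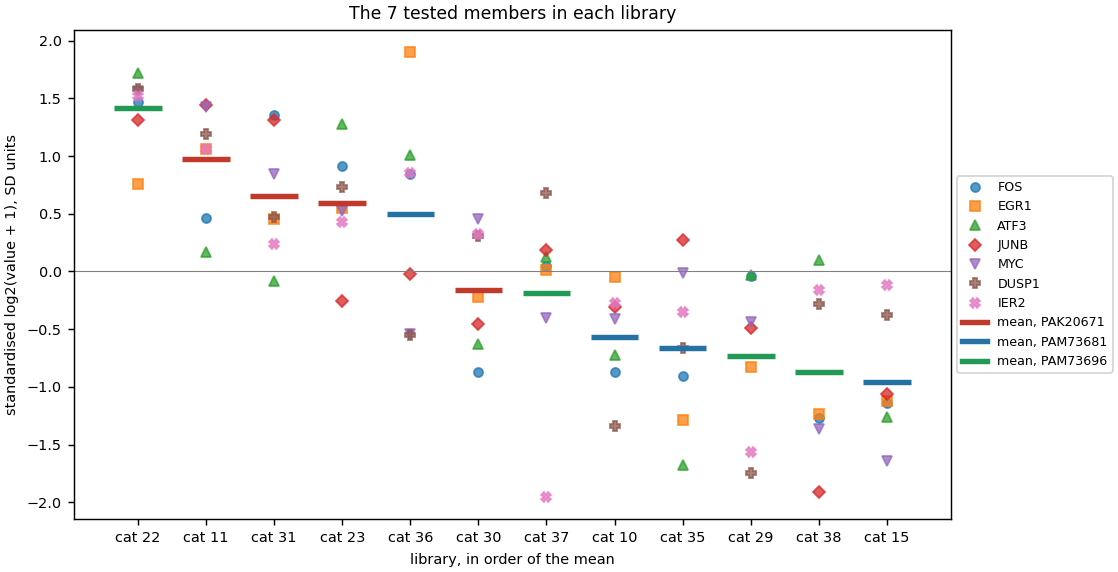
Standardised log2(value + 1) of the 7 tested members (SD units, y axis) in each library (x axis, in order of the mean), with symbols for genes and bars for the mean of the 7, coloured by flow cell. All 7 symbols lie above 0 in cat 11, where ATF3 is lowest at 0.17, and in cat 22, where EGR1 is lowest at 0.76, and the 4 libraries of PAK20671 lie among the 6 highest.

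Whether the members vary together was tested with Spearman's rho over the 12 libraries, and the p-values were adjusted over all 61712 relations of a tested member with a tested gene. All 21 pairs of the 7 tested members had a positive rho, from 0.36 for JUNB with ATF3 to 0.85 for FOS with EGR1, with a median of 0.62. At an unadjusted two-sided permutation p under 0.05, 12 of the 21 pairs were positive, which is 57.1%, against 5.06% of the 61691 relations of a tested member with another gene. Over all pairs of tested genes the median rho was -0.00025, 49.6% were positive, and 3.88% reached 0.587, the lowest rho among the 12 pairs. The 21 pairs are made of only 7 genes in the same 12 libraries and are not independent of each other.

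After adjustment no pair passed, and none of the 61712 relations did (0% called, smallest adjusted p = 0.224 in the permutation test). The smallest adjusted p of a pair was 0.293. With 100000 permutations the smallest p is 1e-05, and a lone relation at that p would have an adjusted p of 0.617, so the adjusted threshold could be reached only by many relations together. The number of positive pairs at an unadjusted p under 0.05 fell to 7 without cat 22, to 7 without cats 22 and 29, and to 6 after the mean of every flow cell was subtracted, and all 21 pairs stayed positive in each of these.

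FOS and EGR1 were the closest pair by rank, with rho = 0.85 (permutation p = 0.00086, adjusted p = 0.293). On log2(value + 1) Pearson's r was 0.78 (permutation p = 0.00339). It was 0.83 without cats 22 and 31, the 2 libraries farthest from the median of FOS, and 0.81 with flow cells centred (exact p within flow cells = 0.00376). JUNB and MYC had rho = 0.81 (permutation p = 0.00238, adjusted p = 0.297) and r = 0.86 (permutation p = 0.00053). Their r was 0.79 without cats 11 and 38 and 0.88 with flow cells centred (exact p within flow cells = 6.51e-04).

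EGR1 and ATF3 had rho = 0.77 (permutation p = 0.00462, adjusted p = 0.316) and r = 0.70 (permutation p = 0.0115), which became 0.58 without cats 35 and 36 and 0.86 with flow cells centred (exact p within flow cells = 0.00362). FOS and JUNB had rho = 0.71 (permutation p = 0.0123, adjusted p = 0.379) and r = 0.745 (permutation p = 0.00521), with r = 0.57 without cats 22 and 31 and 0.73 with flow cells centred (exact p within flow cells = 0.0238). These 4 pairs kept an unadjusted p under 0.05 in all 19 alternatives tried. FOS and ATF3 lost it in 1 of the 19, without cats 22 and 29 (rho = 0.62, permutation p = 0.0606).

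MYC and DUSP1 had rho = 0.71 (permutation p = 0.0116, adjusted p = 0.377), and r fell from 0.67 to 0.41 without cats 11 and 22 and to 0.49 with flow cells centred (exact p within flow cells = 0.343). By rho it kept an unadjusted p under 0.05 in 18 of 19 alternatives, and with flow cells centred rho was 0.40 (exact permutation p = 0.299). FOS with MYC had rho = 0.70 (permutation p = 0.0138), EGR1 with IER2 had 0.71 (permutation p = 0.0128), and ATF3 with DUSP1 had 0.65 (permutation p = 0.0252). JUNB with EGR1 and IER2 with DUSP1 both had 0.62, with permutation p of 0.0380 and 0.0376, and ATF3 with IER2 had 0.59 (permutation p = 0.0489). With flow cells centred, 5 of these 6 pairs no longer had an unadjusted p under 0.05 for rho, ATF3 with IER2 being the exception.

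At the weak end were JUNB with ATF3 (rho = 0.36, permutation p = 0.248) and MYC with ATF3 (rho = 0.40, permutation p = 0.202), which reached an unadjusted p under 0.05 in 0 of 19 alternatives. Of the tested members, FOS was the most like the mean of the other 6 (r = 0.84), followed by MYC (0.79), EGR1 (0.77), JUNB (0.72), DUSP1 (0.68), ATF3 (0.65) and IER2 (0.58).

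**Figure D3:**
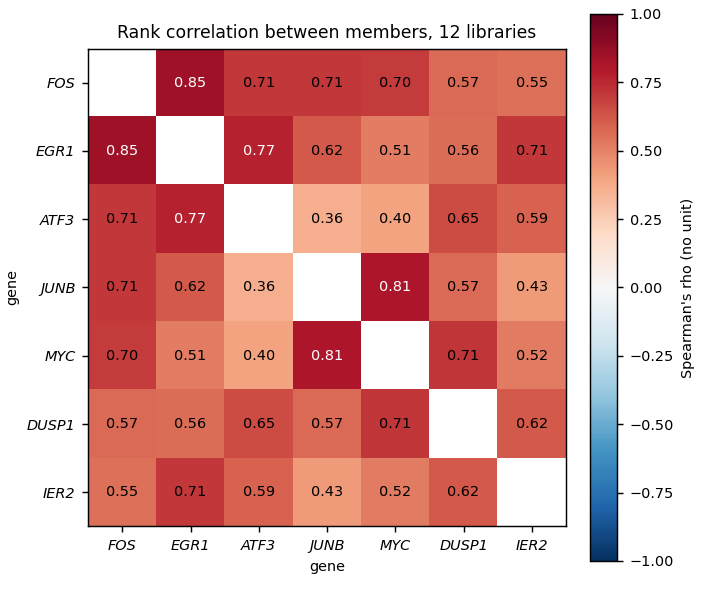
Spearman's rho (colour and number, no unit) between each pair of the 7 tested members over 12 libraries, with genes on both axes. All 21 values are positive, with FOS and EGR1 highest at 0.85 and JUNB and ATF3 lowest at 0.36.

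**Figure D4:**
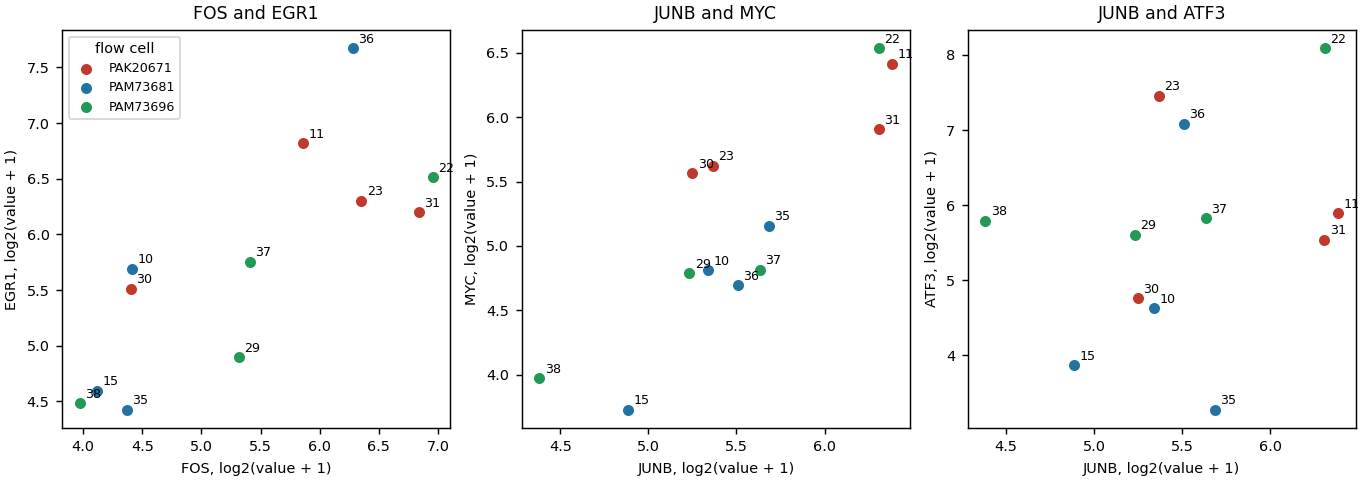
Levels on the log2(value + 1) scale of FOS with EGR1, JUNB with MYC, and JUNB with ATF3 (both axes of each panel), with 1 point per library labelled with the cat number and coloured by flow cell. The points of the first 2 panels rise together within and across flow cells, with r = 0.78 and r = 0.86, and those of the last panel are scattered, with r = 0.30.

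When JUN and ZFP36 were included with every gene that had a read, 36 pairs of 9 genes could be formed, of which 32 were positive and 13 had an unadjusted p under 0.05. The lowest rho was -0.15, for JUNB with ZFP36 (permutation p = 0.651). JUN and MYC had rho = 0.62 (permutation p = 0.0344, adjusted p = 0.717), with at most 7 reads of JUN in a library.

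The sequencing depth of a library was compared with each member, because the scaling might leave depth behind. The correlation of reads on genes with the level was weak, from rho = -0.22 for DUSP1 (permutation p = 0.485) to 0.17 for IER2 (permutation p = 0.586), and the adjusted p was at least 0.955. The smallest p of the 7 was that of DUSP1, and with flow cells centred no p was under 0.05 either.

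Between flow cells, PAK20671 was compared with the mean of the other 2 by limma on log2(value + 1) over all 8820 tested genes. The fitted difference was above 0 for all 7 tested members, with a median of 0.615 against 0.03 for the other tested genes, but 0 of 7 passed an adjusted p of 0.05. Among all genes 160 were higher (1.81%) and 314 lower (3.56%) on PAK20671. Scaling by total reads (CPM) turned this split to 352 higher and 152 lower and moved the median of all genes from 0.03 to 0.22, edgeR's quasi-likelihood test gave 219 and 249, and under both the 7 members lay above the median of all genes and 0 of 7 passed.

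MYC had the largest difference, 1.07 ± 0.39 (SE) on the log2 scale (adjusted p = 0.120). Its mean was 59.5 ± 17.5 (SD, 4 libraries) on PAK20671, 24.7 ± 9.30 on PAM73681 and 40.1 ± 34.97 on PAM73696. Without cat 22 the difference was 1.32 and passed (adjusted p = 0.0268), and without cats 22 and 29 it was 1.38 (adjusted p = 0.0414). DUSP1 followed in p with 0.43 ± 0.23 (adjusted p = 0.297), from means of 123.5 ± 14.5, 81.4 ± 9.65 and 109 ± 43.0 on PAK20671, PAM73681 and PAM73696.

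For FOS the difference was 0.76 ± 0.53, for EGR1 0.70 ± 0.51, for IER2 0.615 ± 0.43, for JUNB 0.46 ± 0.33 and for ATF3 0.39 ± 0.64 (SE, log2 scale), with adjusted p from 0.421 to 0.763. The difference of ATF3 turned to -0.12 without cat 23. None of these exceeded the spread between libraries by the test.

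PAM73681 and PAM73696 were compared in the same fit, where 0 of the 8820 genes passed (0%), with 696 at an unadjusted p under 0.05, 0 calls by edgeR and 23 by DESeq2, none of them a member. For ATF3 the difference, PAM73681 minus PAM73696, was -1.62 ± 0.74 (SE, log2 scale) at an unadjusted p of 0.0427 in limma, which did not hold after adjustment (adjusted p = 0.612). The other 6 members had differences from -0.62 for FOS to 0.46 for IER2, with adjusted p of at least 0.782. The sign turned for FOS without cats 22 and 29, for MYC without cat 22, for JUNB without cat 15, 22 or 37, and for EGR1 without cat 36 or 38.

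Other immediate early genes were examined from a list of 45, of which 31 passed the filter. Their correlation with the standardised mean of the 7 members is a description, since all points share libraries and scaling. The median r was 0.53, against -0.003 for the 8813 other tested genes, 25 of 31 were above 0 against 49.7% of the other tested genes, and 11 (35.5%) reached 0.6 against 5.71%. With flow cells centred the median was 0.48, and without cats 22 and 29 it was 0.55, with 22 of 31 above 0 and 12 (38.7%) at 0.6 or more, against 51.2% and 10.9% of the other tested genes. The summed value of the list had r = 0.91 with the members, or 0.87 without cats 22 and 29, and ran from 1527 in cat 35 to 3994 in cat 22. None of the 31 was called between flow cells.

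The following genes of that list were picked after their values were seen. DUSP6, a phosphatase specific for ERK, had r = 0.86, NR4A1, an orphan nuclear receptor, 0.77, the matricellular gene CTGF 0.76, IER3 0.74, KLF10, a factor induced by TGF-beta, 0.74, BHLHE40 0.74, TRIB1 0.74, CSRNP1 0.73 and SOCS3, a brake on cytokine signalling, 0.70. BTG2, which restrains proliferation, and GADD45A, a stress sensor, had 0.63 and 0.64. Without cats 22 and 29 the r of these 11 ran from 0.55 for CSRNP1 and 0.60 for BHLHE40 to 0.81 for BTG2 and 0.85 for DUSP6. Not all followed, since CEBPD had r = -0.56, the clock gene PER1 -0.48 and NFKBIA, the inhibitor of NF-kappa B, -0.37. The 14 genes that did not pass the filter included FOSL1, EGR2, EGR3, NR4A2, KLF6, IRF1 and TNFAIP3, and EGR4 and NPAS4 had 0 reads.

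Of 23 regulators and kinases upstream, 20 passed the filter, and their median r was 0.34, or 0.18 with flow cells centred. Of the 20, 14 (70%) were above 0 and 3 (15%) reached 0.6, against 49.7% and 5.71% of the other tested genes. None was called between flow cells. By the same later choice, ELK1, a partner of SRF, had r = 0.75, the kinase MAPK8 (JNK1) 0.65, MAP2K1 (MEK1) 0.65, SRF itself 0.38 and MKL2, an SRF coactivator, -0.49.

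Among heat shock and oxidative stress genes 9 of 11 were listed, HSPA1A and HSPA1B being absent under these symbols, and 6 passed the filter. The median r of these 6 was 0.57, or 0.50 with flow cells centred, and 6 of 6 were above 0 (other tested genes 49.7%). On PAK20671, where 1.81% of all tested genes were called higher, 2 of the 6 were higher. These were HSP90AA1, a chaperone, at 0.81 ± 0.20 (SE, log2 scale, limma adjusted p = 0.0272) and HSPB1, a small heat shock protein, at 1.15 ± 0.29 (adjusted p = 0.0343). Of 10 inflammatory genes 4 passed, and IL6, CXCL8, IL1B, PTGS2, LIF and SELE did not, with at most 18 reads each in all. The 4 had a median r of 0.53, or 0.70 without cats 22 and 29, and 0.40 with flow cells centred. Among them MCP-1, a chemokine that attracts monocytes, was higher on PAK20671 by 2.599 ± 0.64 (adjusted p = 0.0279), and it missed the threshold without cat 11 (adjusted p = 0.154), cat 31 or cat 15. Of 12 hypoxia genes 10 passed, with a median r of -0.22, or -0.14 with flow cells centred, and 0 called. Of these 10, 4 had an r above 0, and the summed value of the list had r = 0.40, or 0.29 with flow cells centred. Of 21 alternatives, HSPB1 missed the threshold in 8 and HSP90AA1 in 2, and both missed it without cat 11 (adjusted p of 0.138 and 0.103) and without cat 31.

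Markers of cell types were set beside the members. All 6 fibroblast markers had a positive r with the members, against 49.7% of the other tested genes (median 0.51, and 0.29 with flow cells centred), and their summed value had r = 0.59. COL1A1, COL3A1 and COL1A2, chains of fibrillar collagen, were higher on PAK20671 by 2.63 ± 0.36, 1.84 ± 0.34 and 2.00 ± 0.41 (SE, log2 scale), with limma adjusted p of 0.00232, 0.00857 and 0.0122. The summed fibroblast value was 1121 to 3193 on PAK20671, 276 to 676 on PAM73681 and 853 to 1757 on PAM73696. TAGLN, 1 of 5 smooth muscle and pericyte markers, was higher by 2.63 ± 0.45 (adjusted p = 0.00764), and TAGLN itself, which ran from 28.6 to 744, had r = 0.72 with the members. The median r of that list was 0.30, or 0.25 with flow cells centred, and its sum, 127 to 907 across libraries, had r = 0.64, or 0.45 with flow cells centred. Among 7 cardiomyocyte markers 4 were lower on PAK20671, with TNNT2 at -1.05 ± 0.20 (adjusted p = 0.00967), TNNI3 at -1.64 ± 0.34 (adjusted p = 0.0122) and PLN at -0.96 ± 0.26 (adjusted p = 0.0424). ACTC1, MYL2 and RYR2, named by later choice, were not called. ACTC1 lay above 0, at 0.59 ± 0.37 (limma adjusted p = 0.363), with MYL2 at -0.16 ± 0.30 (adjusted p = 0.791) and RYR2 at -0.51 ± 0.27 (adjusted p = 0.278). Over all tested genes 1.81% were called higher and 3.56% lower on PAK20671. COL1A1, COL3A1, COL1A2, TAGLN and TNNT2 passed in all 21 alternatives, TNNI3 missed the threshold without cat 11 (adjusted p = 0.071), and PLN missed it in 14. MYH6, the remaining cardiomyocyte call and named by later choice, missed it in 12. The median r of the cardiomyocyte markers with the members was -0.50, or -0.73 without cats 22 and 29, and -0.24 with flow cells centred. Their summed value had r = 0.17, or 0.35 with flow cells centred. MYL2 made up most of that sum, at 62270 to 165200 against 77730 to 192600, and had r = 0.26.

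Endothelial markers (5 tested, summed value 352 to 1208) had a median r of 0.06 with the members, or -0.11 without cats 22 and 29. Their summed value had r = -0.20, or -0.60 without cats 22 and 29. Macrophage markers (5 of 6 tested, summed value 62.1 to 580.5) had a median r of 0.006. It was 0.25 without cats 22 and 29 and -0.20 with flow cells centred. Among these markers CD68, picked after its value was seen, had r = 0.73, or 0.68 without cats 22 and 29. Neutrophil markers (3 of 4 tested) had a median r of -0.14, or 0.11 without cats 22 and 29. Their highest sum, 1537, was in cat 35 and their lowest, 18.4, in cat 38. Of 4 lymphocyte markers only PTPRC was tested, with 0 to 15 reads per library, and CD3E, CD2 and MS4A1 did not pass the filter. The r of PTPRC was -0.11, or 0.27 without cats 22 and 29, and holds for that gene alone. Adipocyte markers (3 of 4 listed) and erythroid markers (1 of 4 listed) had 0 tested, with sums of at most 12.4 and 32.7. LYZ of the macrophage list and MS4A1 of the lymphocyte list were at 0 in all libraries, whereas the 5 tested macrophage markers had reads in every library. The part of fibroblasts, smooth muscle or cardiomyocytes in the levels of the members was not tested.

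**Figure D5:**
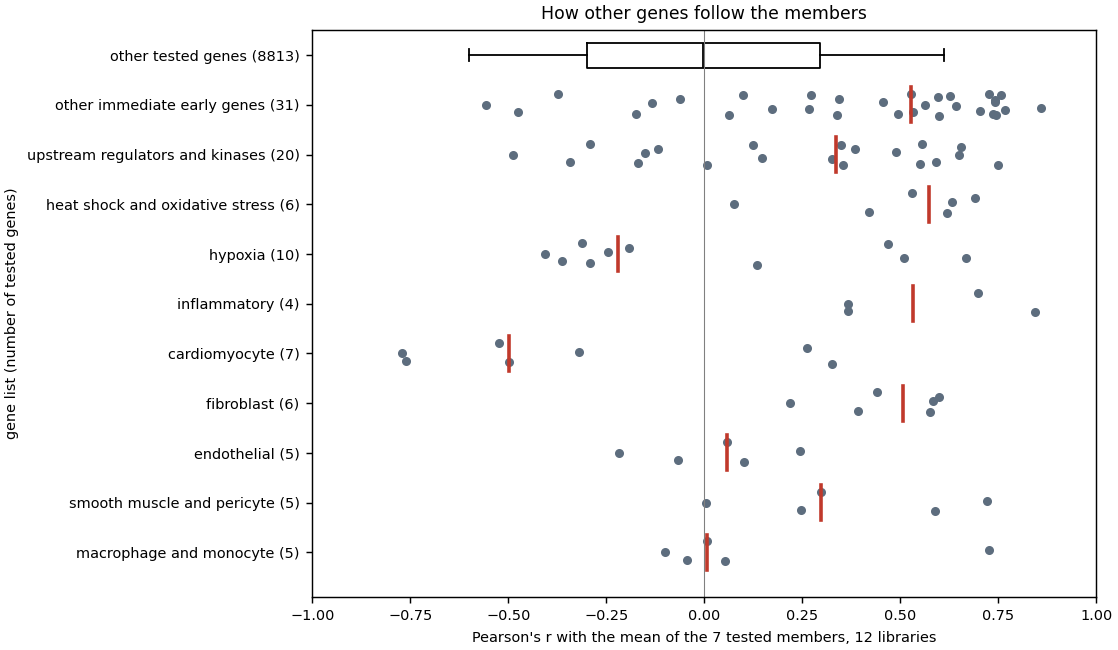
Pearson's r (x axis, no unit) of each tested gene with the standardised mean of the 7 tested members over 12 libraries, by gene list (y axis, number of tested genes in brackets). Points are genes and red bars are medians, and for the 8813 other tested genes the box gives the quartiles and the median with whiskers at the percentiles 5 and 95. Other immediate early genes (median 0.53) and heat shock genes (median 0.57) lie to the right of the other tested genes (median -0.003), and hypoxia genes (median -0.22) do not.

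The 10 genes outside the members whose level was most like their mean were chosen by that likeness, so their r is a description. They were KLF5 (r = 0.885), SUB1 (0.88), SLC16A3 (0.88), THBS1 (0.88), ARL6IP6 (0.86), DLG1 (0.86), DUSP6 (0.86), TOP1 (0.86), HMGCS1 (0.86) and MCP-1 (0.84). KLF5 is a zinc-finger factor, THBS1 a matrix glycoprotein, SLC16A3 a lactate exporter, TOP1 a topoisomerase and HMGCS1 an enzyme of cholesterol synthesis. With flow cells centred their r ran from 0.81 for DUSP6 to 0.94 for KLF5, and without cats 22 and 29 from 0.844 for TOP1 to 0.96 for THBS1. Of the 10, THBS1 ran from 86.0 to 1817 and MCP-1 from 0.735 to 108, both highest in cat 11, and SLC16A3 had as few as 1 read in a library.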

How the data were processed

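RNA from left ventricular tissue of 12 cats was sequenced directly, 1 library per cat. The authors extracted RNA with RNeasy, used the SQK-RNA002 kit, called bases with Guppy, mapped reads to felCat9 by minimap2 and assigned them to genes by featureCounts. The deposited signal values are whole reads divided by a size factor per library. Within 1e-06, each deposited value (100%) came to a whole number of reads, and the factors differed from recomputed median-of-ratios factors by a relative 2.44e-15 at most. These whole reads were recovered, and edgeR and DESeq2 were run on them as alternatives, giving 468 and 838 calls between PAK20671 and the other flow cells against 474 with limma. Counting error limits genes with few reads, and limits of 3 reads for a count of 0 cover counting error only.

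Genes with 10 or more reads in 3 or more libraries were tested on log2(value + 1) with limma's trend, in 1 fit of 3 flow cells, with Benjamini-Hochberg adjustment over all tested genes and a threshold of 0.05. With a pseudocount of 1, fold changes of low genes are understated. Spearman's and Pearson's correlations were tested with 100000 two-sided permutations, and centred values with the 13824 orders within flow cells. With 1 library per cat, limma's p-values rest on the spread between libraries of the same flow cell, cats and preparations together. The exact tests within flow cells rest on the same spread. A spread between runs is not in that error, since it lies inside the difference between flow cells. The permutations over all 12 libraries mix cats, preparations and flow cells. Alternatives were other pseudocounts, filters, scalings and tests, each library left out, and the libraries of cats 22 and 29 left out. The list calls and the relations with other genes under these alternatives, and the ranges and list correlations without cats 22 and 29, were computed later, after seeing the data.

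The members and gene lists were chosen with earlier results of these data known. Named are the members, up to 3 genes per direction of each list with the smallest adjusted p under 0.05, and the 10 genes most like the members; other names are said to be later choices. One gene of the inflammatory list is not reported here. CYR61, CTGF, MKL1, MKL2 and MCP-1 are the file's names for CCN1, CCN2, MRTFA, MRTFB and CCL2. Symbols matched RefSeq for all 10 members; its assembly is newer than the mapped build, so no coordinates or sequences were used. Scripts were tested on simulated data. The tools were limma 3.58.1, DESeq2 1.42.0 and edgeR 4.0.16 in R 4.3.3, and scipy 1.17.1, pandas 2.3.3, matplotlib 3.10.9 and numpy 2.4.6 in Python 3.11.15.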

Additional observations from a re-analysis of the deposited data

Results flagged for a closer look

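Within each flow cell, the 4 libraries of each member were examined for a library far from the other 3, by the gap to its neighbour over the whole range (above Dixon's 95% critical value). Of 27 groups with any spread 7 stood out. Chance gives about 1 in 20 for independent, normally distributed values, which these are not: the members share libraries and the values were not on a log scale, so the number is not comparable with that rate. On PAM73681 the library of cat 36 was highest for FOS at 76.6, with 16.3 to 20.3 in the other 3 libraries, for EGR1 at 203, with 20.5 to 50.7, for ATF3 at 134.4, with 8.665 to 23.7, and for IER2 at 24.04, with 11.8 to 13.6. On PAM73696 the library of cat 22 was highest for ATF3 at 271, with 47.7 to 55.8, and for MYC at 91.8, with 14.7 to 27.2. On PAK20671 the library of cat 23 was highest for ZFP36 at 6.72, which is 5 reads, with 0.965 to 1.68 in the others.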

How the results depend on the processing

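All 21 pairs of tested members stayed positive in the 19 alternatives, and no member was called between flow cells in any alternative other than MYC without cat 22 and without cats 22 and 29. The 12 pairs with an unadjusted p under 0.05 became 8 with Pearson's r on log2(value + 1), 16 with CPM and 16 without scaling. They became 6 with each flow cell centred, 7 without cats 22 and 29, and 7 (without cat 22) to 16 (without cat 36) with 1 library left out. The 3123 positive relations of members with other genes at an unadjusted p under 0.05 became 5343 with CPM, 9216 without scaling, 2020 with flow cells centred and 5529 with every gene that had a read, where more genes were tested. The 474 calls between PAK20671 and the other flow cells became 838 with DESeq2, 262 without cats 22 and 29, and 89 (without cat 11) to 524 (without cat 23) with 1 library left out, with 170 without cat 31 and 284 without cat 15. Between PAM73681 and PAM73696 the 0 calls became 1 with a pseudocount of 2, 1 with CPM, 23 with DESeq2, 1 without cats 22 and 29, and 0 to 2 with 1 library left out. In the first comparison the other immediate early genes had 0 calls, which became 1 with CPM, 1 without cats 22 and 29 and 0 to 2 with 1 library left out (2 without cat 22 and 2 without cat 35), the regulators had 0 to 1 (1 without cat 10), and the 4 stress calls became 0 (without cat 11) to 6 (without cat 35), with 1 without cat 31 and 2 without cat 15. The difference of ATF3 on PAK20671 ran from -0.12 (without cat 23) to 0.79 with 1 library left out. Between the other 2 flow cells, FOS, JUNB and MYC turned to 0.10, 0.35 and 0.20 without cats 22 and 29, and with 1 library left out JUNB ran from -0.37 to 0.27, EGR1 from -0.51 to 0.57 and MYC from -0.782 to 0.0723. Apart from these, the cause of a changed count was not tested. No paired analysis was possible because each cat number occurs in 1 flow cell only. With 1 library per cat, depth limits FOSB, JUN and ZFP36 most.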
